A study of Raphanus sativus with 9 samples.

Results

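Radish plants (*Raphanus sativus* cv. Taebaek) sampled after vernalization (AV) were compared with plants sampled before vernalization (NV), over every gene for which reads were counted. The NV plants were 4 weeks old, had grown in a greenhouse and had received no cold. The AV plants had grown in the same greenhouse for 4 weeks, were then kept in a cold room on short days for 4 weeks, and were returned to warm temperature for 2 weeks before sampling, when they were 10 weeks old. Both groups were therefore growing warm when RNA was taken, and they differed in a cold period that had ended 14 days earlier and in age, which cannot be told apart in these libraries. The comparison used 5 of the 9 libraries of the study, 3 of NV and 2 of AV, because only 376 of 64657 genes had different counts in AV replicates 2 and 3, which is less than sampling noise gives, and AV replicate 2 was taken to stand for both. A further 3 libraries, from plants at the end of the cold (V, 8 weeks old), were fitted together with them so that all groups shared an estimate of the spread. After a filter on low counts, 32043 of the 64657 listed genes were tested.

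Vernalization is the promotion of flowering by a long period of cold, and in the Brassicaceae it is known for effects on gene expression that outlast the cold itself. Glucosinolates (GSLs) are the sulfur-containing defence compounds of this family. Aliphatic GSLs are built from chain-elongated methionine and indolic GSLs from tryptophan, each branch under its own group of R2R3-MYB transcription factors. Intact GSLs are stored apart from myrosinases, the enzymes that release the pungent and toxic products when tissue is crushed. The GSLs genes are the only genes of these libraries that carry names, taken from the study's table of homologs found by sequence search with *Arabidopsis* genes. That table lists 94 different identifiers, which is not quite the total the study states for it, and the roles below are those known from *Arabidopsis* unless radish is named.

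The NV and AV libraries held 21220739 to 26062882 reads on genes, and the number of genes above the detection floor of 3 counts was alike in both groups, at 32680 to 33361 in NV and 32533 to 32953 in AV. The floor was equal to 0.110 to 0.142 CPM (the counts scaled to a common library size) and covers counting error only. The median absolute difference between libraries, over genes of at least 1 CPM on average, was 0.231 to 0.358 on the log2 scale within NV, 0.200 within AV, and 0.478 to 0.516 between the groups, so that every pair across the groups lay farther apart than any pair within them. The labels name leaf and roots as the tissue and whole seedlings as the material extracted, and no leaf or root marker carried a name, so the share of each organ in a library was not tested. In such mixed samples, fewer cells of a type and less RNA per cell cannot be told apart. An exact permutation test of 3 libraries against 2 cannot go below p = 0.1, so the tests of genes borrow the spread that edgeR fitted over the whole table.

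In AV, 2858 of the 32043 tested genes (8.92%) stood higher than in NV and 4210 (13.1%) stood lower at an adjusted p under 0.05 in edgeR's quasi-likelihood test and a log2 fold change of at least 1 in size, 22.1% in either direction. The fall was the larger side in depth as well as in number. Genes called lower had a median log2 fold change of -1.85, and 850 of them (20.2%) had fallen by more than 3 on the log2 scale, whereas genes called higher had a median of 1.52 and 254 of them (8.89%) had risen by as much. Over all tested genes the log2 fold change had a median of 0 and ran from -2.26 at percentile 5 to 1.50 at percentile 95. In reads, the genes called lower took 17.3% to 18.1% of each NV library and 5.48% to 5.51% of each AV library, and the genes called higher took 4.14% to 4.18% of NV and 12.5% to 12.8% of AV. The libraries of the groups did not overlap in 4176 of the genes called lower and in 2846 of those called higher. As the calls were made on these same libraries, this follows largely from the call and is no further evidence. Of all genes tested, 29.0% lay wholly lower and 28.4% wholly higher in AV.

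**Figure D1:**
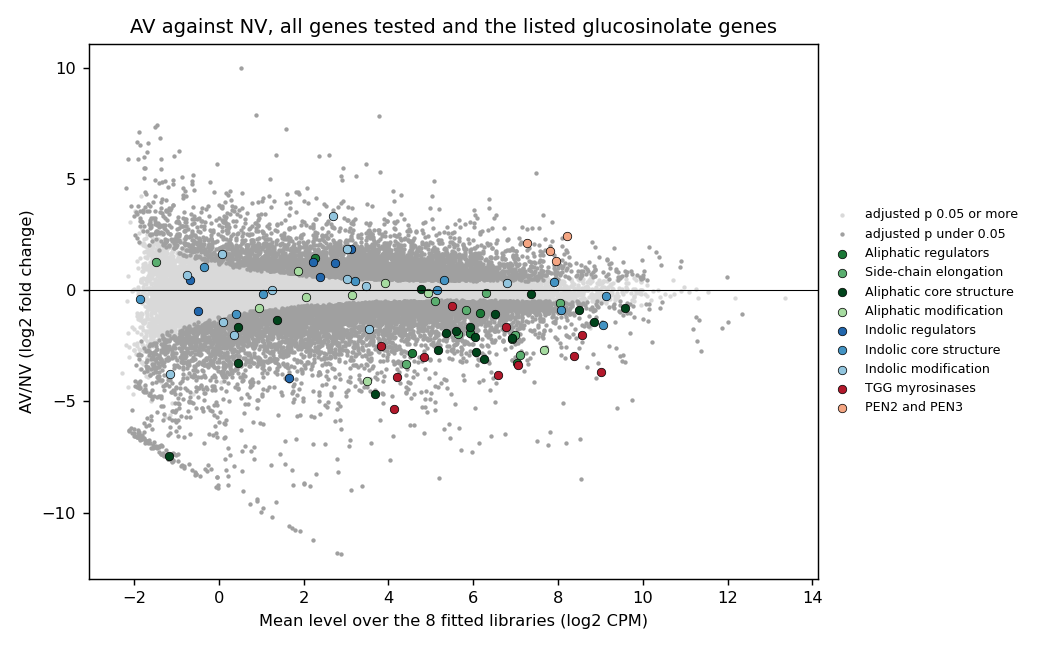
Log2 fold change of AV over NV against the mean level in log2 CPM, each point a tested gene, in dark grey at an adjusted p under 0.05, with the 87 tested glucosinolate genes in colour by step. The 11 myrosinases lie below 0 and the 4 *PEN* genes above it, and falls reach farther from 0 than rises at low levels.

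The excess of falls was uneven over the range of expression. When the tested genes were ranked by mean level and cut into 5 bins of equal size, 20.2% of the lowest bin were called lower and 10.1% higher, whereas in the middle bin 9.72% were called lower and 8.94% higher. The tail of falls ended in genes that were read in NV and hardly at all in AV. Altogether 65 genes had at least 30 counts in every NV library and at most 3 in both AV libraries, 25 of them with none. These genes were at least 13.2-fold to 243-fold lower in AV (median of the bounds 30.6). A bound is the mean CPM of the group that was read over the highest floor among libraries of the other group. In the V libraries, 37 of the 65 were still above the floor in every library and 15 were at it in every library. The opposite pattern, at the floor in NV and at least 30 counts in both AV libraries, was met by 8 genes, which were at least 9.31-fold to 66.8-fold higher in AV. None of these genes belonged to the GSLs list. The numbers depend on the libraries at hand, since without AV replicate 1 or 2 the first count was 106 or 117, and without any of the 5 libraries the other count was between 14 and 16.

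Among the genes called above, the changes that moved most reads were in genes without a name. RSG48138 was read at 4722, 3439, and 4877 CPM in NV and at 654 and 668 CPM in AV, a 6.58-fold fall (log2 fold change -2.72 ± 0.21, SE, edgeR adjusted p = 1.17e-07). RSG31051 stood at 5758, 7308, and 4279 CPM in NV and at 2684 and 2800 CPM in AV (log2 fold change -1.08 ± 0.26, edgeR adjusted p = 0.00449). In neither gene did the groups overlap, and the NV libraries were the more scattered. The largest gains among called genes were those of RSG07761 and RSG01416. RSG07761 went from 1251, 1032, and 1445 CPM to 3349 and 2830 CPM (1.31 ± 0.23, edgeR adjusted p = 0.000299). RSG01416 went from 847, 792, and 876 CPM to 2622 and 2097 CPM (1.49 ± 0.20, edgeR adjusted p = 3.86e-05). Both AV libraries were above every NV library in each. For called genes such a separation follows largely from the call, and 57.4% of all tested genes did not overlap.

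Of the 94 GSLs genes, 87 passed the filter, and 49 of these were lower and 12 higher in AV when called at an adjusted p under 0.05 whatever the size of the change. That is 70.1% of the tested GSLs genes, against 36.8% of all tested genes (19.8% lower, 17.0% higher). The median log2 fold change of the 87 genes was -0.91, beside 0 over all tested genes. Together the 94 genes took 10861, 11729, and 10387 CPM in NV and 5802 and 5764 CPM in AV. Of the 49 falls, 31 were in the aliphatic steps, 11 among the myrosinases, and 7 in the indolic steps. Of the 12 rises, 6 were in the indolic steps, 4 among the *PEN* genes, and 2 in the aliphatic steps. The 7 genes that were not tested (*RsSOT18e*, *RsSOT18g*, *RsSOT18h*, *RsFMOGS-OX5-2*, *RsBZO1*, *RsCYP79A2b*, and *RsCYP79A2c*) had at most 28 counts each over the 8 fitted libraries, and 2 of them had none. Reads that fit more than a single place in the genome are not counted by HTSeq-count, and the levels of near-identical copies are uncertain for that reason.

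**Figure D2:**
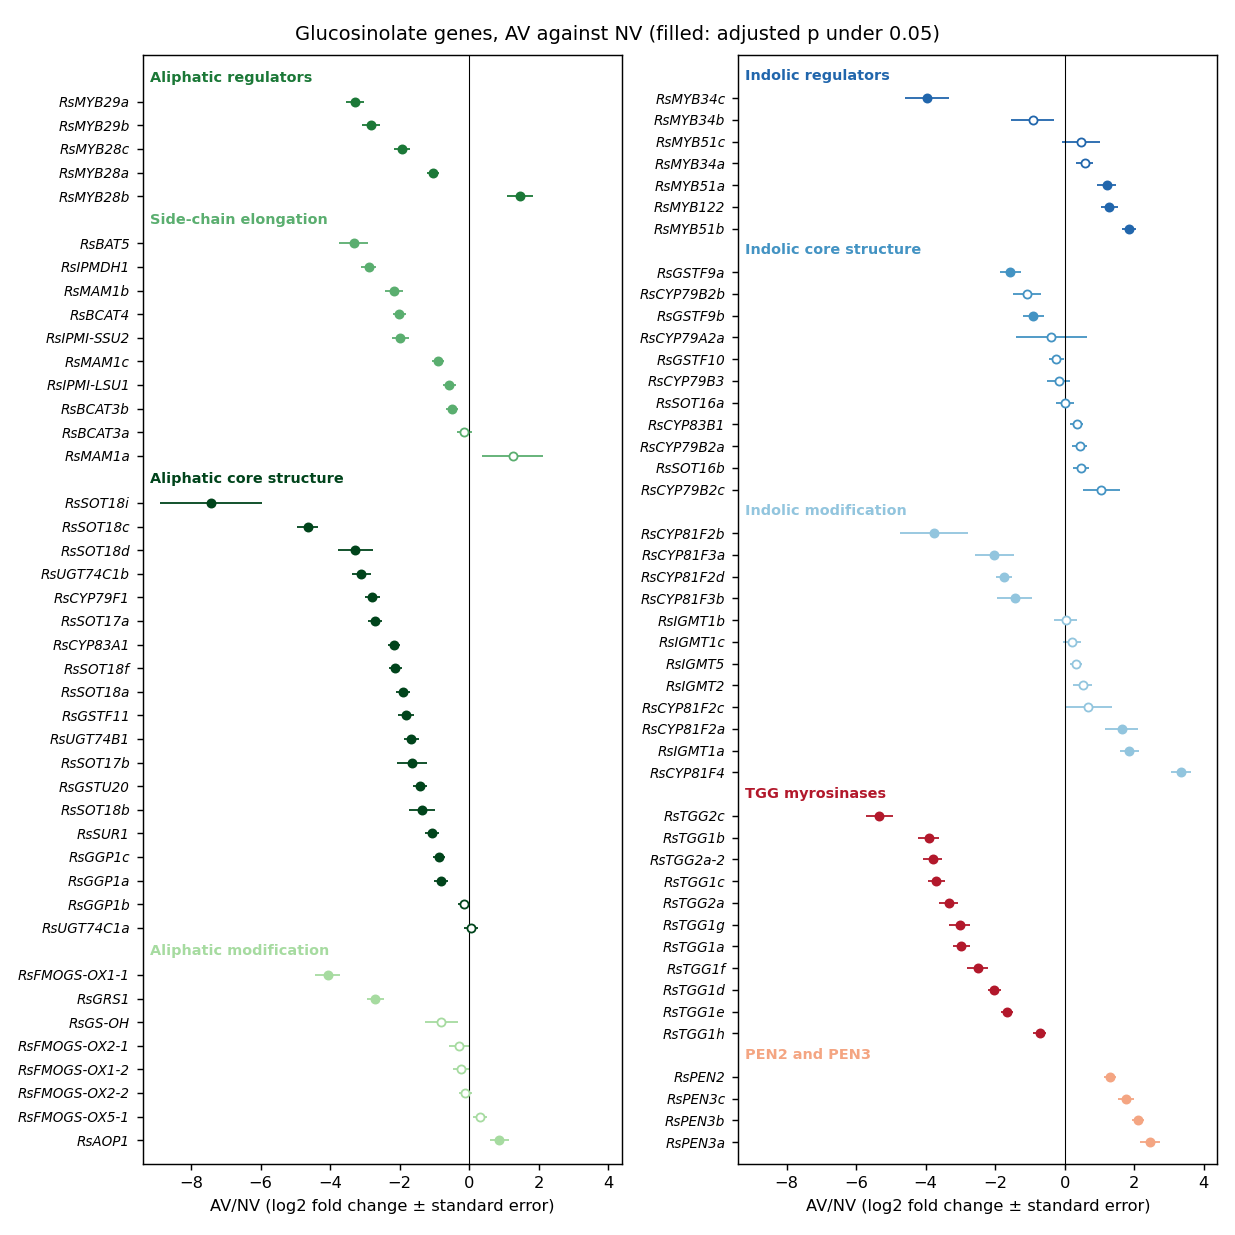
Log2 fold change of AV over NV with its standard error for the 87 tested glucosinolate genes, grouped by step, filled where the adjusted p was under 0.05. All 11 myrosinases lie left of 0 and the 4 *PEN* genes right of it. Most points of the aliphatic steps lie left of 0, with *RsMYB28b* and *RsAOP1* filled on the right, and the indolic steps hold points on both sides.

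All 5 aliphatic regulators passed the test, 4 lower and 1 higher, beside 19.8% lower and 17.0% higher over all tested genes. *RsMYB29a*, a homolog of a MYB factor that activates the methionine-derived branch, was read at 199, 204, and 116 CPM in NV and at 16.6 and 18.7 CPM in AV. NV replicate 3 was the lowest of its group, and still far above both AV libraries, and the fall was 9.80-fold (log2 fold change -3.29 ± 0.26, edgeR adjusted p = 1.44e-07). *RsMYB29b* went from 23.2, 19.9, and 18.3 CPM to 2.07 and 3.72 CPM (-2.82 ± 0.25, adjusted p = 5.45e-07). *RsMYB28c*, a homolog of the main activator of the branch, stood at 65.6, 54.6, and 48.0 CPM in NV and 12.1 and 17.2 CPM in AV (-1.93 ± 0.22, adjusted p = 6.26e-06). For none of these genes did the groups overlap, and *RsMYB28a* fell by less, from 67.6 ± 6.71 CPM (SD, n = 3) to 32.9 ± 1.26 CPM (SD, n = 2).

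*RsMYB28b* was the exception of the step. It was read at 3.23, 3.41, and 1.19 CPM in NV and at 5.47 and 8.87 CPM in AV, a rise of 1.46 ± 0.37 on the log2 scale (edgeR adjusted p = 0.00581). Both AV libraries lay above all NV libraries, but the call rested on AV replicate 2, without which the log2 fold change was 1.06 and the adjusted p 0.114. The 3 homologs of *MYB28* thus spread over 3.40 on the log2 scale. NV replicate 3 was the lowest NV library for each of the 5 regulators, whereas it was the lowest in 39.6% of all tested genes.

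Side-chain elongation, in which methionine gains carbon units before the GSLs core is made, had 8 of its 10 genes lower and none higher. The share called was 80%, beside 36.8% of all tested genes (19.8% lower, 17.0% higher). The median log2 fold change of the step was -1.44. *RsBAT5*, a homolog of the plastid carrier of the 2-keto acids, was read at 40.8, 61.0, and 16.6 CPM in NV and at 3.54 and 4.31 CPM in AV (log2 fold change -3.32 ± 0.41, edgeR adjusted p = 1.35e-05). Among the called genes of the step it varied most within NV, with replicate 3 lowest, yet without overlap. *RsIPMDH1*, the isopropylmalate dehydrogenase of the cycle, stood at 214, 257, and 190 CPM in NV and at 30.3 and 28.9 CPM in AV (-2.90 ± 0.21, adjusted p = 5.61e-08). For *RsMAM1b*, the methylthioalkylmalate synthase that adds the carbon unit, the values were 173, 211, and 130 CPM against 43.0 and 32.9 CPM (-2.17 ± 0.26, adjusted p = 8.87e-06).

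Transaminases mark the entry and the exit of this cycle. *RsBCAT4*, at the entry, fell 4.04-fold, from 170 ± 10.6 CPM to 42.0 ± 2.82 CPM, and *RsIPMI-SSU2*, a small subunit of the isomerase, fell 3.96-fold. *RsMAM1c* fell by 0.89 on the log2 scale. The smallest called falls were those of *RsIPMI-LSU1*, the large subunit (-0.57), and of *RsBCAT3b*, at the exit (-0.50). Both were lost when a single library was left out, with adjusted p values of 0.190 and 0.175 without AV replicate 2 and of 0.0987 and 0.132 without AV replicate 1, and also without NV replicate 2 (0.0836 and 0.0684). *RsBCAT3b* was lost too without NV replicate 1 (0.0664), V replicate 1 (0.0607), or V replicate 3 (0.0588), and in a fit of NV and AV alone (0.0558), a fit of unfiltered genes (0.0538), or scaling by library totals (0.0721). *RsBCAT3a* (log2 fold change -0.14) and *RsMAM1a* (1.25, at 11 counts or fewer in every library) did not pass the test.

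In the synthesis of the aliphatic core structure, 17 of the 19 tested genes were lower and none was higher, with a median log2 fold change of -1.82. This is 89.5% called, beside 36.8% of all tested genes (19.8% lower, 17.0% higher). The 17 include enzymes that both branches share. Falls were found from the entry enzyme to the last sulfation. *RsCYP79F1*, which turns elongated methionine into an aldoxime, was read at 104, 138, and 93.8 CPM in NV and at 14.9 and 17.3 CPM in AV (-2.80 ± 0.22, edgeR adjusted p = 1.19e-07). *RsCYP83A1*, which oxidizes that aldoxime, stood at 147, 162, and 146 CPM in NV and at 33.6 and 34.2 CPM in AV (-2.16 ± 0.18, adjusted p = 2.28e-07). The replicates of *RsCYP83A1* were tight in both groups, and the groups of both genes were far apart.

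The glutathione transferases *RsGSTF11* and *RsGSTU20*, which attach the sulfur donor, fell 3.52-fold and 2.65-fold. Beyond them lie enzymes that both branches share. *RsGGP1a* and *RsGGP1c*, homologs of a peptidase that trims the glutathione conjugate, fell by 0.80 and 0.87 on the log2 scale, and *RsGGP1b* did not pass the test (-0.16). *RsSUR1*, the C-S lyase, fell 2.12-fold, and *RsUGT74B1*, the S-glucosyltransferase, 3.18-fold. The call of *RsGGP1a* was lost without AV replicate 2 (adjusted p = 0.0905).

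The pair of *UGT74C1* homologs, glucosyltransferases of the aliphatic branch, parted. *RsUGT74C1b* was read at 123, 131, and 78.2 CPM in NV and at 14.6 and 11.2 CPM in AV, an 8.59-fold fall (log2 fold change -3.10 ± 0.27, edgeR adjusted p = 4.50e-07). *RsUGT74C1a* stood at 16.9, 18.2, and 17.7 CPM in NV and at 21.3 and 15.4 CPM in AV (0.06 ± 0.20, adjusted p = 0.855), so that its AV libraries fell on either side of NV.

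The sulfotransferases that finish aliphatic GSLs, homologs of *SOT17* and *SOT18*, were lower in all 8 genes tested, beside 19.8% of all tested genes. *RsSOT18c* was the tightest of them in NV, at 23.9, 23.4, and 24.7 CPM, and was read at 1.36 and 0.55 CPM in AV. This 25.1-fold fall (-4.65 ± 0.31, edgeR adjusted p = 2.78e-08) deepened to -5.43 without AV replicate 1. *RsSOT18d* was near the floor in AV, with 2.40, 2.51, and 1.72 CPM in NV against 0.264 and 0.184 CPM (-3.27 ± 0.50, adjusted p = 0.000108). *RsSOT18i*, at 0.826, 1.09, and 0.738 CPM in NV, had no reads in AV and was at least 7.82-fold lower. The copies with most reads, *RsSOT18f* (117 ± 18.6 to 27.0 ± 3.28 CPM), *RsSOT17a* (62.1 ± 7.97 to 9.54 ± 0.32 CPM), and *RsSOT18a* (59.1 ± 7.82 to 15.8 ± 2.01 CPM), fell 4.35-fold, 6.51-fold, and 3.74-fold. *RsSOT17b* and *RsSOT18b*, at 1.46 and 2.58 CPM in NV, lost their calls without AV replicate 2 (adjusted p = 0.0586 and 0.132).

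In modification of the aliphatic side chain, 2 of 8 tested genes were lower, 1 was higher, and 5 did not pass the test, so that the share called (37.5%) was near the 36.8% of all tested genes. *RsGRS1*, the radish dioxygenase that forms glucoraphasatin, the main GSL of radish, was read at 378, 423, and 256 CPM in NV and at 55.7 and 52.9 CPM in AV. The fall was 6.49-fold (-2.70 ± 0.23, edgeR adjusted p = 3.62e-07), with NV replicate 3 the lowest of its group and no overlap. *RsGRS1* alone held 79.2% of the reads of the step in NV and 44.0% in AV. The *FMOGS-OX* genes encode S-oxygenases of the side chain, and only *RsFMOGS-OX1-1* of the 5 tested passed, at 22.3, 21.6, and 28.0 CPM in NV and 2.04 and 0.81 CPM in AV (-4.07 ± 0.37, adjusted p = 5.51e-07; -4.88 without AV replicate 1). Its closest namesake, *RsFMOGS-OX1-2*, stood at 11.1 ± 1.20 CPM in NV and 9.45 ± 0.74 CPM in AV, and the log2 fold change was -0.29 for *RsFMOGS-OX2-1*, -0.11 for *RsFMOGS-OX2-2*, and 0.32 for *RsFMOGS-OX5-1*.

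*RsAOP1*, of the AOP family of dioxygenases, was the gene that rose. It was read at 2.68, 2.80, and 4.26 CPM in NV and at 5.24 and 6.63 CPM in AV (0.87 ± 0.28, edgeR adjusted p = 0.0222). The groups did not overlap, but the call was lost without NV replicate 1 (adjusted p = 0.0919), NV replicate 2 (0.0523), or AV replicate 2 (0.197). *RsGS-OH*, a hydroxylase of the side chain, gave a log2 fold change of -0.80 with an adjusted p of 0.207.

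Of the 7 indolic regulators, 3 were higher, 1 was lower, and 3 did not pass the test, beside 17.0% higher and 19.8% lower over all tested genes. The median log2 fold change of the step was 0.58. *RsMYB51b*, a homolog of an activator of the tryptophan-derived branch, was read at 5.55, 5.59, and 4.55 CPM in NV and at 18.8 and 19.0 CPM in AV. This was a 3.61-fold rise (1.85 ± 0.20, edgeR adjusted p = 3.75e-06) with closely spaced libraries in both groups. *RsMYB51a* rose from 5.04, 4.17, and 6.31 CPM to 11.2 and 12.9 CPM (1.22 ± 0.27, adjusted p = 0.00248). *RsMYB122*, of the same group of factors, rose from 2.75, 1.85, and 2.58 CPM to 6.45 and 5.30 CPM (1.29 ± 0.25, adjusted p = 0.000931). *RsMYB34a* had 4.36 ± 0.79 and 6.50 ± 0.23 CPM and did not pass (0.58, adjusted p = 0.0868). *RsMYB34c* was at 1.06, 0.758, and 0.983 CPM in NV and at the floor in both AV libraries, at least 8.26-fold lower. *RsMYB34b* and *RsMYB51c*, both under 1 CPM, did not pass.

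Indolic core synthesis had 2 of 11 tested genes lower and none higher, a share called (18.2%) below the 36.8% of all tested genes, and a median log2 fold change of -0.17. The 2 that fell, *RsGSTF9a* and *RsGSTF9b*, are homologs of a glutathione transferase of the branch. *RsGSTF9a* was read at 670, 880, and 526 CPM in NV and at 258 and 210 CPM in AV (-1.56 ± 0.30, edgeR adjusted p = 0.000735). *RsGSTF9b* stood at 370, 389, and 248 CPM in NV and at 199 and 161 CPM in AV (-0.90 ± 0.30, adjusted p = 0.0261). The groups of *RsGSTF9b* came close without overlapping, and its call was lost without NV replicate 1 (adjusted p = 0.0856), NV replicate 2 (0.0803), AV replicate 1 (0.0855), or AV replicate 2 (0.192). *RsGSTF10*, another transferase of the family, overlapped between the groups (658 ± 113 and 558 ± 91.7 CPM).

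The enzymes that commit tryptophan to this branch did not pass the test in either direction. *RsCYP79B2a*, which makes indole-3-acetaldoxime, was read at 7.79, 6.59, and 8.40 CPM in NV and at 10.6 and 10.1 CPM in AV (0.44 ± 0.22, edgeR adjusted p = 0.132). *RsCYP79B2b* had the opposite sign, at 1.38, 1.28, and 1.27 CPM against 0.679 and 0.552 CPM (-1.08 ± 0.41, adjusted p = 0.0505; it passed in 6 of 20 refits, such as 0.0427 without V replicate 2), and *RsCYP79B2c* stayed under 1 CPM. *RsCYP79B3* was read at 1.93, 2.42, and 2.50 CPM in NV and at 2.15 and 1.91 CPM in AV, with overlap. *RsCYP83B1*, the next oxidase, stood at 209, 189, and 261 CPM in NV and at 270 and 291 CPM in AV (0.35 ± 0.19, adjusted p = 0.157). Its AV libraries lay just above the highest NV library, replicate 3, without which the adjusted p was 0.0430.

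*RsSOT16a* and *RsSOT16b* are homologs of the sulfotransferase that finishes indolic GSLs. *RsSOT16a* was read at 28.4, 18.8, and 39.6 CPM in NV and at 31.1 and 27.4 CPM in AV, inside the range of NV. *RsSOT16b* stood at 27.5, 29.4, and 38.3 CPM in NV and at 50.1 and 38.3 CPM in AV (0.48 ± 0.23, edgeR adjusted p = 0.122; 0.0430 without NV replicate 3). *RsCYP79A2a*, a homolog of an oxidase that acts on phenylalanine, was at the floor in both groups.

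Modification of the indole ring held genes of both directions, 4 lower and 3 higher of 12. The share called was 58.3%, beside 36.8% of all tested genes (19.8% lower, 17.0% higher). *RsCYP81F4*, which hydroxylates the ring at its nitrogen, was read at 0.629, 0.332, and 0.738 CPM in NV and at 5.69 and 6.18 CPM in AV. This was the largest rise of the GSLs list, 10.3-fold (3.36 ± 0.29, edgeR adjusted p = 4.10e-07), with both AV libraries far above NV. *RsIGMT1a*, a methyltransferase that acts on the hydroxylated ring, rose from 1.73, 3.32, and 3.65 CPM to 11.1 and 9.90 CPM (1.86 ± 0.27, adjusted p = 7.55e-05). *RsIGMT1b*, *RsIGMT1c*, *RsIGMT2*, and *RsIGMT5* did not pass (log2 fold changes of 0.03, 0.21, 0.52, and 0.32), and *RsIGMT5* held 68.9% of the reads of the step in NV and 72.7% in AV.

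The *CYP81F2* and *CYP81F3* homologs, hydroxylases of the same family, mostly fell. *RsCYP81F2d* was read at 17.2, 16.3, and 21.8 CPM in NV and at 6.22 and 4.86 CPM in AV (-1.73 ± 0.23, edgeR adjusted p = 3.00e-05). *RsCYP81F3a* stood at 2.05, 0.995, and 1.72 CPM in NV and at 0.113 and 0.663 CPM in AV (-2.02 ± 0.57, adjusted p = 0.0114). Its AV libraries were far apart, and the log2 fold change was -1.26 without AV replicate 1 (adjusted p = 0.124) and -3.77 without AV replicate 2. *RsCYP81F3b* went from 2.05, 1.28, and 2.58 CPM to 0.829 and 0.626 CPM (-1.44 ± 0.51, adjusted p = 0.0367), a call that was lost without NV replicate 1 (0.0939), NV replicate 3 (0.105), AV replicate 1 (0.105), or AV replicate 2 (0.193). *RsCYP81F2b*, at the floor in AV and at least 7.30-fold lower, was lost without AV replicate 1 (0.0507) or 2 (0.0793). *RsCYP81F2a* rose from 0.469 ± 0.10 to 1.47 ± 0.32 CPM and was lost without NV replicate 1 (0.0565) or AV replicate 2 (0.114). *RsCYP81F2c* stayed near 1 CPM or below and did not pass (0.68).

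The myrosinases had the largest median change of the 9 steps. All 11 homologs of *TGG1* and *TGG2*, the classical myrosinases of *Arabidopsis*, were lower in AV, beside 19.8% of all tested genes. Their median log2 fold change was -3.03. In none did the groups overlap, as was so for 57.4% of all tested genes in either direction. *RsTGG2c* was read at 47.4, 51.2, and 30.7 CPM in NV and at 1.32 and 0.81 CPM in AV, a 40.4-fold fall (-5.33 ± 0.39, edgeR adjusted p = 6.25e-08). *RsTGG1b* stood at 24.7, 26.1, and 16.7 CPM in NV and at 0.98 and 1.99 CPM in AV (-3.92 ± 0.31, adjusted p = 1.34e-07; -4.52 without AV replicate 2). For *RsTGG2a-2*, the second gene that the study names *RsTGG2a* (RSG30298), the values were 270, 260, and 148 CPM against 13.8 and 18.7 CPM (-3.80 ± 0.28, adjusted p = 6.53e-08). NV replicate 3 was the lowest NV library for these 3 genes, and for 9 of the 11.

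In reads, *RsTGG1c* led the family. It was read at 1204, 1538, and 954 CPM in NV and at 94.7 and 96.4 CPM in AV (-3.69 ± 0.24, edgeR adjusted p = 1.94e-08), and this loss of CPM was the 16th largest of all 64657 genes listed. *RsTGG1d* (754 ± 46.5 to 186 ± 1.49 CPM) and *RsTGG1a* (607 ± 172 to 77.3 ± 2.14 CPM) had the 36th and 40th largest losses. *RsTGG2a* fell 10.2-fold and *RsTGG1g* 8.14-fold, *RsTGG1f* 5.65-fold and *RsTGG1e* 3.15-fold. *RsTGG1h* fell least, from 64.9 ± 5.51 to 39.6 ± 3.83 CPM (-0.71 ± 0.18, adjusted p = 0.00633), and its call was lost without AV replicate 2 (0.0801). The 11 genes therefore spanned from -0.71 to -5.33 in log2 fold change while sharing a direction.

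The breakdown genes of the *PEN* group all rose, beside 17.0% of all tested genes. *RsPEN2*, a homolog of the atypical myrosinase that acts on indolic GSLs in living cells under pathogen attack, was read at 156, 154, and 181 CPM in NV and at 416 and 392 CPM in AV (1.31 ± 0.17, edgeR adjusted p = 1.80e-05). The 3 homologs of *PEN3*, an ABC transporter of the plasma membrane in the same defence, rose by more. *RsPEN3a* stood at 107, 49.0, and 125 CPM in NV and at 401 and 632 CPM in AV (2.46 ± 0.30, adjusted p = 1.18e-05). *RsPEN3b* went from 84.8, 72.7, and 90.6 CPM to 318 and 393 CPM (2.10 ± 0.17, adjusted p = 2.15e-07). *RsPEN3c* went from 127, 76.0, and 149 CPM to 343 and 456 CPM (1.77 ± 0.24, adjusted p = 3.06e-05). NV replicate 2 and AV replicate 1 were the lowest of their groups in all 3 *PEN3* homologs, and the groups stayed apart. The gains of *RsPEN3a*, *RsPEN3c*, *RsPEN3b*, and *RsPEN2* in CPM ranked 36th, 71st, 74th, and 89th of all genes listed.

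**Figure D3:**
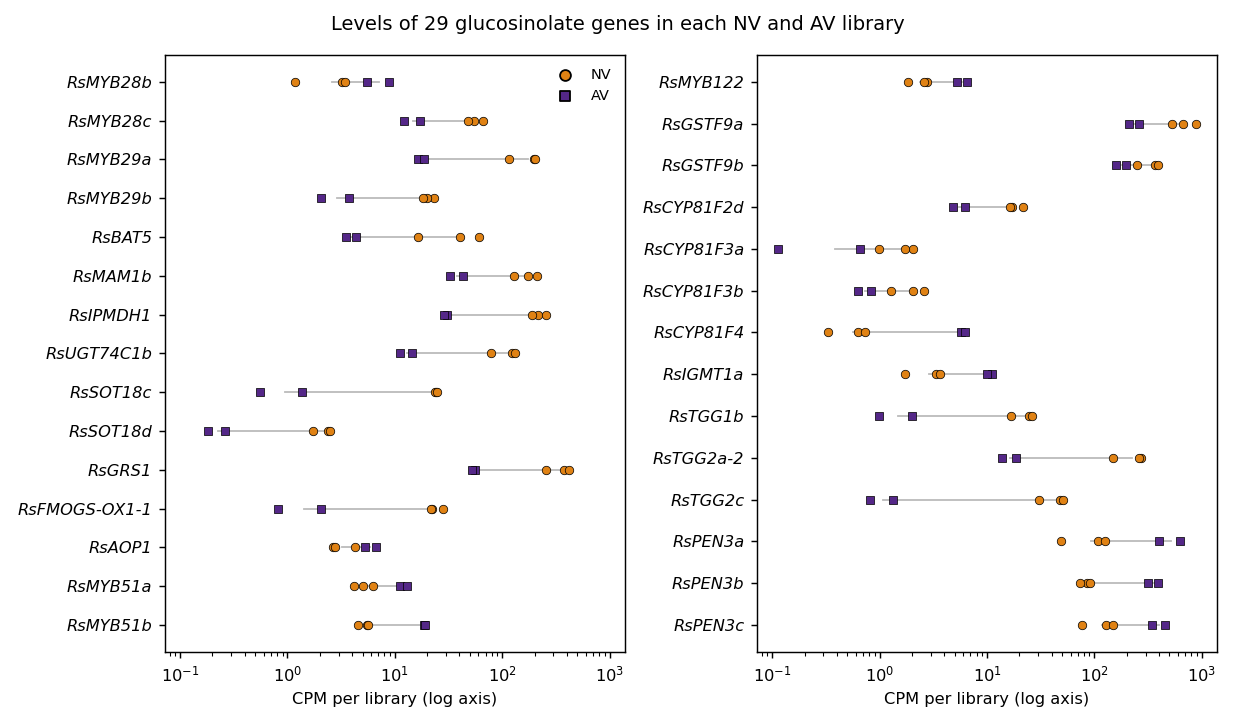
CPM on a log axis in each NV (circles) and AV (squares) library for 29 glucosinolate genes, the grey line joining the group means. The genes were picked among those called in these same libraries, mostly by the size of the change. That the groups do not overlap in any of the 29 genes therefore follows largely from the choice. Of all tested genes, 57.4% did not overlap. The distance is largest for *RsTGG2c*, *RsSOT18c*, and *RsFMOGS-OX1-1*.

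Summed over the genes of a step, reads fell in every aliphatic step and among the myrosinases. These sums are descriptions without a test, since the lists were chosen with results of these data known. The aliphatic regulators took 361, 354, and 243 CPM in NV and 68.2 and 82.2 CPM in AV, 4.25-fold less. Side-chain elongation went from 1175 ± 150 CPM (SD, n = 3) to 484 ± 31.7 CPM (SD, n = 2), the aliphatic core from 3062 ± 261 to 1396 ± 127 CPM, and modification from 445 ± 82.6 to 123 ± 5.75 CPM. As sums, the regulators and modification fell more steeply than the core. The core sum includes enzymes that both branches share, so it does not give the fall of the aliphatic genes alone. Among these, *RsGGP1a* held 27.6% of the core reads in NV and 34.8% in AV, and fell 1.74-fold.

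Myrosinase reads went from 3482, 3940, and 2775 CPM to 474 and 488 CPM, 7.06-fold less. The *PEN* genes gained 3.67-fold, from 475, 351, and 545 CPM to 1478 and 1873 CPM. Indolic regulators gained 2.33-fold, from 19.0 ± 0.63 to 44.2 ± 0.94 CPM, and indolic modification 1.18-fold, from 139 ± 12.3 to 164 ± 13.5 CPM. Indolic core reads fell 1.48-fold, from 1977 ± 199 to 1339 ± 149 CPM, and *RsGSTF9a*, which fell, held 35.0% of them in NV. In none of the 9 sums did the libraries of the groups overlap, as was so for 57.4% of all tested genes.

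**Figure D4:**
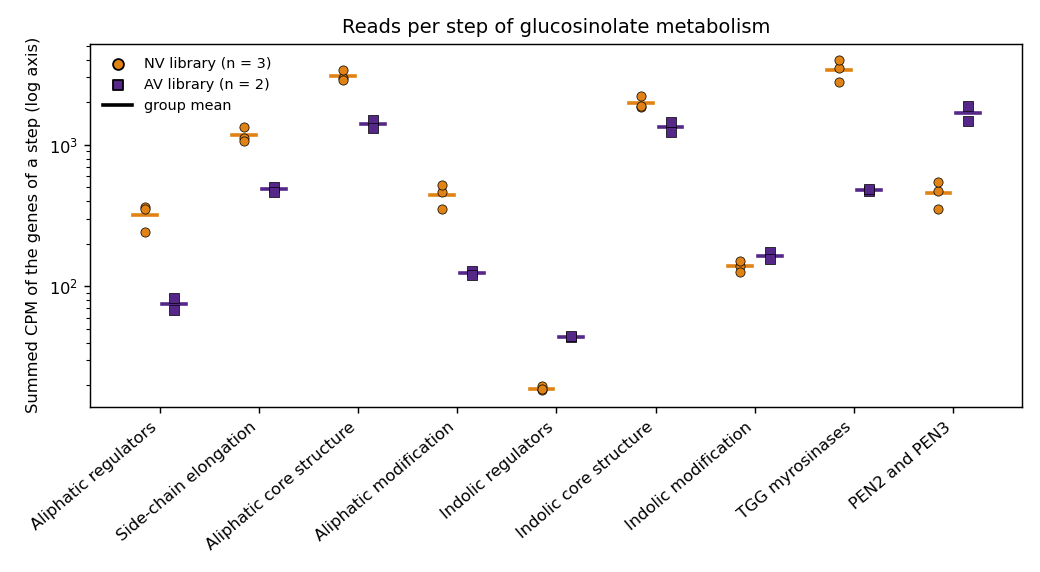
Summed CPM of the genes of each step on a log axis, each point an NV or AV library and each bar a group mean. Myrosinase reads drop from a mean of 3399 to 481 CPM and *PEN* reads rise from 457 to 1675 CPM, with no overlap between the groups in any step. Of all tested genes, 57.4% did not overlap.

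Ratios of reads between genes of the branches, taken within a library, do not depend on how that library was scaled. Gene lengths were not at hand, so a ratio is compared between groups only and its own size says nothing of transcript numbers. The ratio of *CYP83B1* to *CYP83A1* was 1.43, 1.17, and 1.79 in NV and 8.05 and 8.51 in AV, 5.75-fold higher. That of *CYP79B2* and *CYP79B3* to *CYP79F1* was 0.109, 0.0779, and 0.132 in NV and 0.934 and 0.771 in AV, 8.15-fold higher. Most of both shifts lay in the aliphatic gene, which fell, while the indolic genes did not pass the test.

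For the indolic to the aliphatic MYB factors the ratio was 0.0546, 0.0523, and 0.0770 in NV and 0.639 and 0.546 in AV, 9.79-fold higher, and here members of both sides had changed. The sulfotransferase ratio, *SOT16* to *SOT17* and *SOT18*, was 0.223, 0.158, and 0.305 in NV and 1.36 and 1.30 in AV, 6.01-fold higher. The widest shift was that of *PEN2* to the myrosinases, at 0.0447, 0.0390, and 0.0651 in NV and 0.878 and 0.803 in AV, 17.3-fold higher. *RsUGT74C1a* to *RsUGT74C1b*, within the aliphatic branch, was 8.68-fold higher in AV. No ratio overlapped between the groups, as was so for 57.4% of all tested genes. The ratios were chosen with results of these data known, so their separation is no further evidence.

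**Figure D5:**
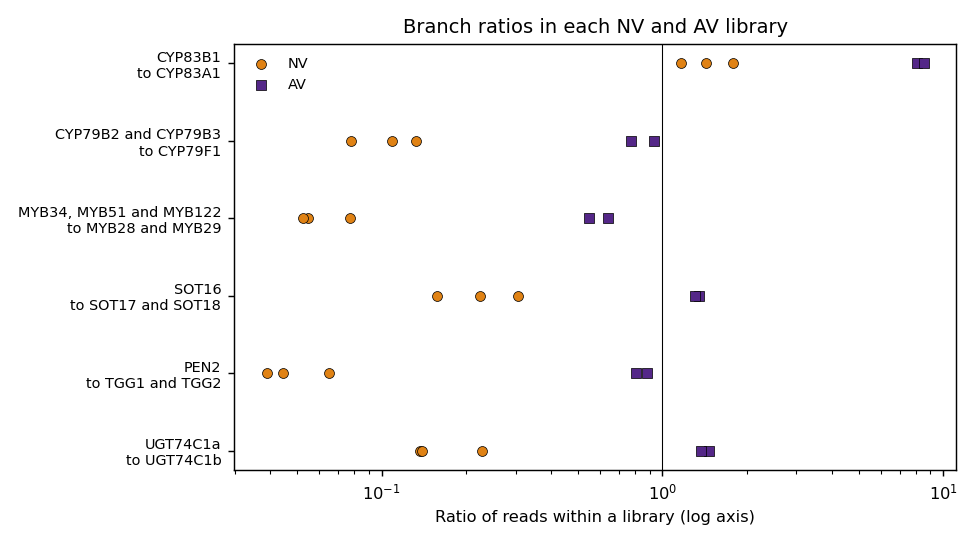
Ratios of reads within each library on a log axis, NV as circles and AV as squares, with a line at 1. In all 6 ratios both AV libraries lie right of every NV library, and the *PEN2* ratio moves farthest, 17.3-fold. The ratios were chosen with results of these data known, and 57.4% of all tested genes did not overlap.

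Radish carries several copies of many *Arabidopsis* GSLs genes, and 21 *Arabidopsis* genes had at least 2 tested homologs, 63 genes in all. In 7 of these families every tested copy was lower, namely *MYB29*, *SOT17*, *SOT18*, *GSTF9*, *CYP81F3*, *TGG1*, and *TGG2*, and in *PEN3* every copy was higher. Over all tested genes, 19.8% were lower and 17.0% higher. Copies of *SOT17*, *SOT18*, *GSTF9*, *CYP81F3*, and *TGG1* lost their calls in some refits, as given above. Copies were called in both directions in 2 families, *MYB28* and *CYP81F2*. In 8 families some copies passed in a single direction and others did not pass, and in 3 families (*FMOGS-OX2*, *CYP79B2*, and *SOT16*) none passed. Among families with tested copies on either side of 0, *CYP81F2* spread most, over 5.40 on the log2 scale, followed by *MYB34* (4.53), *MAM1* (3.43), *MYB28* (3.40), and *UGT74C1* (3.16). Several of these spreads rest on a copy with few reads, such as *RsMAM1a*, *RsMYB34c*, and *RsCYP81F2b*.

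Some GSLs genes carry consecutive identifiers, although the positions of the identifiers in the genome were not at hand. RSG30297, RSG30298, and RSG30299 are *RsTGG2a*, *RsTGG2a-2*, and *RsTGG1c*, and they fell by similar amounts (-3.34, -3.80, and -3.69). RSG07387, RSG07388, and RSG07389 are *RsSOT16a*, *RsSOT18a*, and *RsMYB122*, with log2 fold changes of 0.01, -1.90, and 1.29. RSG32253 and RSG32254 are *RsGSTF9b* (-0.90) and *RsGSTF10* (-0.24), and RSG15203 and RSG15204 are *RsIGMT1a* (1.86) and *RsIGMT2* (0.52). RSG12630, RSG12631, and RSG12632 are *RsSOT18b*, *RsSOT18c*, and *RsSOT18d*, all lower by unlike amounts (-1.35, -4.65, and -3.27). Neighbouring identifiers therefore held genes that changed alike as well as genes that did not.

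The values at the end of the cold, set beside those of NV and AV as a description and not tested here, differed in place from step to step. Aliphatic regulators took 376 to 463 CPM in the V libraries, which was above all NV libraries, and 68.2 to 82.2 CPM in AV. Myrosinases as a sum took 753 to 870 CPM in V, closer to AV than to NV, but the copies differed. The mean of *RsTGG1e* was 83.1 CPM in NV, 192 in V, and 26.4 in AV. That of *RsTGG1f* was 7.17, 29.65, and 1.26 CPM, and that of *RsTGG1b* 22.5, 25.6, and 1.48 CPM. All other copies had a lower mean in V than in NV. *PEN* genes took 833 to 921 CPM in V, between both groups. The ratio of *CYP83B1* to *CYP83A1* was 1.21 to 1.85 in V, inside or just above the range of NV, and reached 8.05 to 8.51 in AV.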

How the data were processed

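The authors extracted RNA of radish before (NV), during (V), and after vernalization (AV), sequenced stranded mRNA libraries on an Illumina NovaSeq system, trimmed the reads, aligned them with Tophat2 to the Nodai radish genome, and deposited the raw counts that HTSeq-count gave for each gene. Tool versions and the counting mode are not given in the sources used here. The counts were not normalized. Rows of unassigned reads (4.27% to 8.89% of the gene and unassigned counts of a library together) were left out.

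AV replicates 2 and 3 had equal counts in 98.7% of genes with 40 or more counts over the pair, against 0.359% to 0.838% for other pairs of NV and AV libraries, and differed by less than the sampling noise. They were counted as 1 sample, for which AV replicate 2 was used. Counts of 8 libraries were scaled by TMM, filtered by filterByExpr, and fitted with a mean per group in edgeR 4.0.16 (R 4.3.3) by glmQLFit with robust estimation. AV/NV was tested by glmQLFTest, and p-values were adjusted by Benjamini-Hochberg over 32043 genes. The SE is the log2 fold change over the square root of its F statistic. Genes over the whole table were called at an adjusted p under 0.05 and a log2 fold change of at least 1 in size, and GSLs genes at an adjusted p under 0.05 alone. The model was tested on simulated data. P-values set a difference against the spread between these libraries, which was moderated over all genes and shared with V.

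GSLs genes and their steps follow the table of homologs of the study. Values in every library are given for up to 3 genes per step. These had the largest change among called genes of at least 1 CPM in a group. Values are also given for *RsGRS1*, for genes of the branch ratios, and for genes called against the majority of their step. Another 4 genes, without a name, were taken by the largest difference in CPM among genes called over the whole table. Any of the 94 genes could be named. The genes, lists, and ratios were chosen with earlier results of these data known. No listed identifier matched the RefSeq table of radish genes (0 matches), and no sequence or position was used. The alternatives were DESeq2 1.42.0 and its size factors, upper quartile scaling, library totals, 2 other filters, the likelihood ratio test, fits of NV and AV only, other uses of the near-identical pair, a replicate block, leaving out each library, and other thresholds.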

Additional observations from a re-analysis of the deposited data

How the results depend on the processing

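In indolic modification, the side with more called genes, lower in the main fit, was not the same in every refit. No sum, ratio, or called gene changed sign under any alternative. The uncalled *RsUGT74C1a*, *RsSOT16a*, *RsIGMT1b*, *RsMYB51c*, and *RsCYP79A2a* did so in some refits (for example, *RsSOT16a* to -0.22 without NV replicate 2 and *RsUGT74C1a* to -0.20 without AV replicate 1). Over the whole table, the counts of genes higher and lower were 777 and 1859 at a minimum log2 fold change of 2 and 5448 and 6351 with the adjusted p alone, and with a library left out they ranged from 2414 to 2956 and from 3551 to 4219. DESeq2 called 2801 higher and 4264 lower. Library totals in place of TMM shifted the median of all genes by 0.09 on the log2 scale, gave 3276 higher and 3788 lower (46.4% higher, against 40.4%), and took the indolic regulator sum to a log2 ratio of 1.31. With a minimum log2 fold change of 1, 5 elongation genes and 1 indolic core gene were lower, and 0 aliphatic modification genes higher. Indolic core had 1 gene higher with all 9 libraries as deposited. Deviations from the group means of same-numbered NV and AV libraries had r = -0.205 and -0.0591 across genes. With 2 AV libraries each deviation mirrors the other, so these values cannot show whether the numbers are pairs. Same-numbered NV and V libraries gave 0.0616, 0.306, and 0.163, and those of unlike number -0.275 to 0.226. The numbers were not used as pairs. The replicate block gave 2832 genes higher and 4135 lower, 1 indolic core gene higher (*RsSOT16b*, adjusted p = 0.0198), and *RsCYP81F3b* without a call (-1.40, adjusted p = 0.0577). With a library left out, aliphatic regulators higher ranged from 0 to 1, aliphatic modification higher from 0 to 1, indolic core higher from 0 to 2 and lower from 1 to 3, and indolic modification lower from 1 to 4. Genes at the floor in AV numbered 38 with at most 1 count, 22 with at least 100 counts in NV, and 69 to 117 with a library left out. Genes at the floor in NV numbered 2, 4, and 14 to 16. The causes of these changes were not tested. Of the 61 called GSLs genes, 48 kept their call in all 20 refits, 13 lost it in at least 1, and none changed sign. Depth limits genes with few reads, such as *RsSOT18i*, whose SE was 1.47.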
